A study of Mus musculus with 80 samples.

Results

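The growth plate of mice that lack matrix metalloproteinase 2 (MMP2-/-) was compared with that of wild type (WT) mice. The members are the 6 MMP2-/- and the 7 WT growth plate libraries of a series of 80, chosen by the tissue and genotype in their labels. The series also holds growth plates of MMP9-/- mice and of mice without both enzymes (MMPdKO), and the calvaria and femoral cortical bone of the 4 genotypes. All mice were labelled as C57BL/6J females aged 21 days, and each growth plate library came from the tibia of a single mouse. WT and MMP9-/- mice were bought from a supplier while MMP2-/- mice came from another laboratory, and MMPdKO mice descended from crosses of both knockouts. The loss of MMP2 in the MMP2-/- mice and the origin of the colony can therefore not be told apart. The knockout is constitutive, and the part of Mmp2 that was deleted is not given in the sources used here.

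The growth plate is the cartilage near the end of a long bone in which chondrocytes divide, stack into columns, enlarge and are replaced by bone. MMP2 and MMP9 are gelatinases, secreted enzymes that cut denatured collagen and basement membrane proteins. MMP9 is made mainly by osteoclasts and other marrow-derived cells and is known for the opening of the hypertrophic cartilage to vessels, while MMP2 is made mainly by mesenchymal cells and is activated at the cell surface by MMP14 together with TIMP2.

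The libraries held 366336 to 1126837 counts in MMP2-/- and 374482 to 962317 in WT, from MARS-seq, which reads the 3′ ends of transcripts, and 12420 to 14067 genes had at least 1 count. Levels are given as CPM, the counts of a gene per 1e+06 counts of the library, after TMM scaling. Cartilage markers were present in every library, with Col2a1 at no less than 952 CPM and Col10a1 at no less than 626 CPM. Markers of other tissues were present too, and summed skeletal muscle genes ranged from 2404 to 49914 CPM in WT and from 10575 to 77648 CPM in MMP2-/-. On the 1000 most variable genes, PC1 held 33.7% and PC2 18.5% of the variance, and 13.5% lay between the genotypes. The share that groups of this size give by chance was not computed. WT replicate 7 had 0 counts of Xist, the RNA of the inactive X chromosome, against 12 to 45 in the other libraries, although it is labelled female. The calvaria and cortical bone of the same mouse had 6 and 2 counts, the lowest of the 7 WT libraries in each bone; the sex of the mouse was not tested further. MMP2-/- replicate 5 lay far from the others on PC2, at 35.6 against −14.9 to 15.6.

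Mmp2, at chr8:92827291-92853420 on the plus strand of GRCm38, was the gene lost. Its level was 287, 524, 316, 385, 459, 398 and 554 CPM in WT replicates 1 to 7. It was 20.4, 13.3, 28.4, 4.16, 24.5 and 37.5 CPM in MMP2-/- replicates 1 to 6, from 5 to 27 counts. The groups did not overlap, and every MMP2-/- library kept some counts. The level fell by 4.35 (SE 0.32) on the log2 scale (adjusted p = 1.04e-06), or 20.4-fold. Mmp9 did not pass. Its level was 1588, 2294 and 3757 CPM (lowest, median and highest) in WT and 1739, 2538 and 4019 CPM in MMP2-/-. These ranges overlapped almost fully, and the log2 difference was 0.09 with a 95% interval from −0.37 to 0.54.

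Very few other genes passed the test. Of 9717 genes tested with edgeR, 5 passed at an adjusted p below 0.05 with a change of 1.5-fold or more (differentially expressed genes, DEGs), which is 0.0515%. Besides Mmp2, all 4 were higher in MMP2-/-: Cap1, Gm7859, Ybx1-ps2 and AC131705.1. Gm7859, Ybx1-ps2 and AC131705.1 met the count minimum of 15 only through MMP2-/- libraries, with at most 1, 2 and 1 counts in a WT library. They were thus tested only because of the group in which they were high, which limits their adjusted p-values. At an unadjusted p under 0.05 there were 761 genes, 297 higher (3.06%) and 464 lower (4.78%). DESeq2 called 6 genes, the same 5 and Usp7, while limma voom with sample weights called 2. The median 95% interval of a log2 fold change reached 0.52 to either side, and 0.34 for the 1733 genes over 100 CPM, so that in 72.4% of the genes a change of 2-fold lay outside the interval. The median log2 fold change of all genes was 0.04. Without WT replicate 7, 4 genes were called, with AC131705.1 lost.

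**Figure D1:**
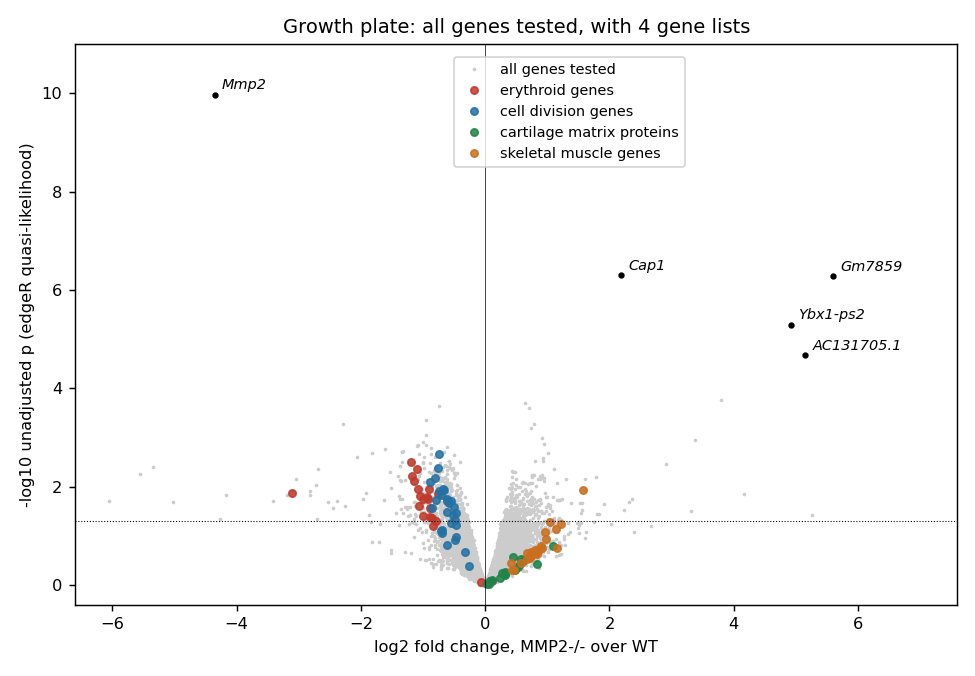
Log2 fold change of each of the 9717 genes tested, MMP2-/- over WT (x axis), against −log10 of the unadjusted p of edgeR's quasi-likelihood test (y axis), with 4 gene lists in colour and a dotted line at 0.05. The 5 DEGs are named in black. Of the erythroid genes 20 of 21 and of the cell division genes all 29 lie left of 0, and the 28 skeletal muscle and 18 cartilage matrix genes lie right of it, with no coloured gene among the DEGs.

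The groups did not overlap in 8 genes that were higher in MMP2-/- (0.0823% of those tested) and in 4 that were lower (0.0412%). The higher ones were Cap1 and AC131705.1, which passed, and Elp3, Gadd45g, Rab11fip5, Tef, Dnmbp and Mrpl24, which did not. Gadd45g, a growth arrest and DNA damage response gene also known from hypertrophic chondrocytes, was at 64.8 to 79.5 CPM in WT and at 82.5 to 153 CPM in MMP2-/- (log2 0.71, SE 0.15, adjusted p = 0.271). The lower ones were Mmp2, which passed, and Fcho1, Timm17b and Gabpb2, which did not.

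Cap1 encodes a protein that binds actin monomers and promotes the turnover of filaments. It was at 19.1, 10.6, 21.9, 14.6, 12.6, 22.3 and 17.9 CPM in WT and at 90.2, 48.8, 44.1, 140, 53.2 and 92.4 CPM in MMP2-/-. The lowest MMP2-/- library was above the highest WT library. Cap1 rose by 2.19 on the log2 scale (SE 0.29, adjusted p = 0.00168), or 4.57-fold, with an adjusted p = 0.0569 when the erythroid score described further on was a covariate. It lies at chr4:122859047-122886056 on the minus strand of GRCm38.

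Gm7859, Ybx1-ps2 and AC131705.1 are annotated as processed pseudogenes, that is, copies of a spliced transcript set into the genome. Their closest protein-coding transcripts in GENCODE M21 were those of Nfu1 (96.1% identity over 768 aligned bases), Ybx1 (92.3% over 978) and Rhbdl2 (97.1% over 906). Reads of such a copy and of its parent gene can be exchanged in alignment, and the counts of the 3 pseudogenes are uncertain for that reason. For the first 2 copies, the last 60 coding bases that align without a gap are shown with the parent sequence, as an example of a stretch in which a short read would differ at a single base. The window was set by its position and not by its likeness, and over the whole alignment Ybx1-ps2 and Ybx1 differ more than in this window; capitals mark the base that differs, 1 of 60 in each pair.
Gm7859, chr15:68715012-68715071, minus strand, GRCm38: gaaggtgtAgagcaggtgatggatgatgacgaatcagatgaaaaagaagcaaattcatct
Nfu1, spliced between chr6:87025646-87028339, plus strand, GRCm38: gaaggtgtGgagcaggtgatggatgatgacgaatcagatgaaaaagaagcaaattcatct
Ybx1-ps2, chr6:37686301-37686360, minus strand, GRCm38: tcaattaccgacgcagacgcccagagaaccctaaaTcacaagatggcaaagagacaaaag
Ybx1, chr4:119279027-119279086, minus strand, GRCm38: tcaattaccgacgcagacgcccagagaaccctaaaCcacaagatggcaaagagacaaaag

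Gm7859 had 2 counts over the 7 WT libraries and 145 over the 6 MMP2-/- libraries. MMP2-/- replicates 1 to 5 were at 26.2, 37.7, 25.2, 24.9 and 50.001 CPM, while replicate 6 was at 0. As a share of all counts of the group, this was a ratio of 73.1, with a 95% counting interval from 19.9 to 609 that covers counting error only (adjusted p = 0.00168). Its closest gene Nfu1, an iron-sulfur cluster scaffold of mitochondria, was at 53.6 to 76.7 CPM in WT and 37.7 to 80.9 CPM in MMP2-/- (log2 −0.15, SE 0.16).

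Ybx1-ps2 was at 0 to 2.92 CPM in WT. In MMP2-/- it was at 51.0, 36.8, 125, 35.1 and 37.5 CPM in replicates 2 to 6 and at 0.970 CPM, within the WT range, in replicate 1. The log2 fold change was 4.92 (SE 0.76, adjusted p = 0.0125), and the gene was no longer called without WT replicate 1 or 5. Ybx1, which encodes a protein that binds RNA and DNA, was at 701 to 767 CPM in WT and 578 to 717 CPM in MMP2-/- (log2 −0.18, SE 0.11, adjusted p = 0.696). AC131705.1 had 1 count over the WT libraries and 59 over the MMP2-/- libraries, at 1.94 to 37.5 CPM (ratio 59.5, counting interval 10.3 to 2388). It had a log2 fold change of 5.15 in the edgeR test (SE 0.90, adjusted p = 0.0418). It was no longer called when any single WT library was left out, nor without MMP2-/- replicate 4, 5 or 6. Rhbdl2, its closest gene and a rhomboid protease of the membrane, was at 17.0 to 38.4 CPM in WT and 26.6 to 92.6 CPM in MMP2-/-, overlapping (log2 0.94, SE 0.27, adjusted p = 0.568).

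**Figure D2:**
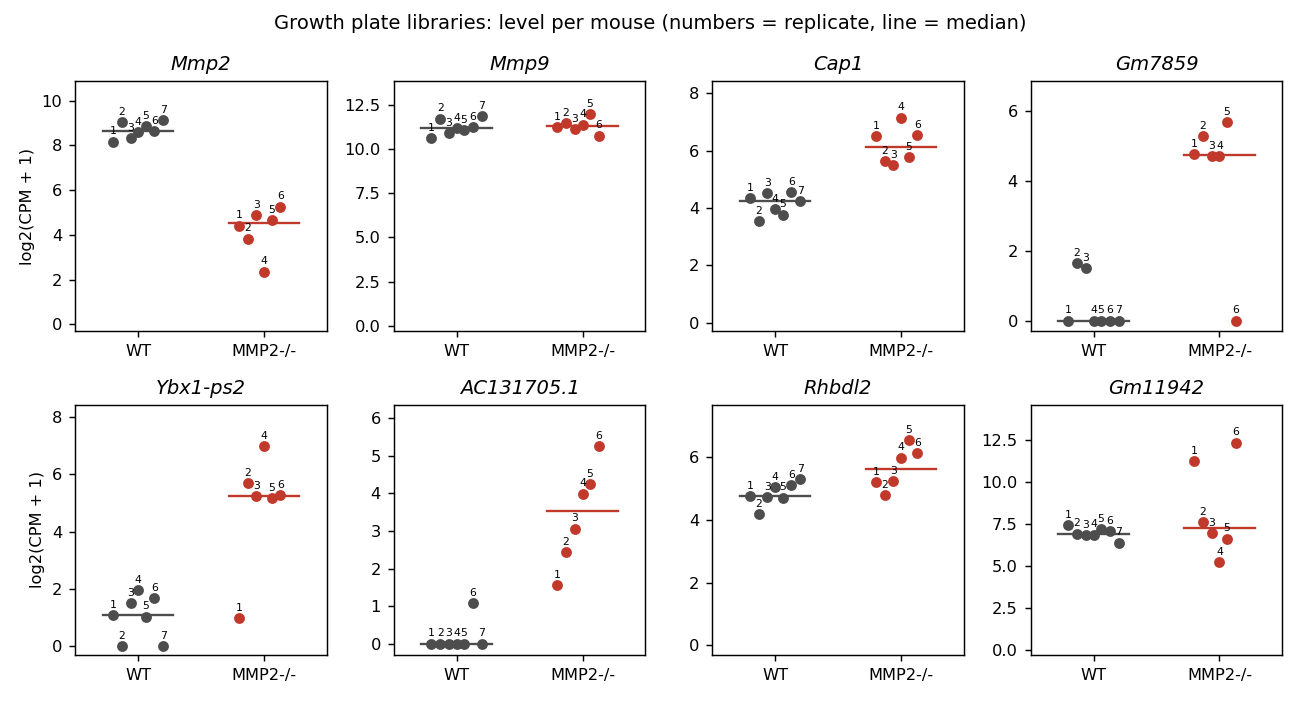
Level of 8 genes as log2(CPM + 1) (y axis) in each WT and MMP2-/- growth plate library (x axis), with the replicate number beside each point and a line at the median. Mmp2, Cap1 and AC131705.1 do not overlap between the groups, whereas 1 MMP2-/- library lies among the WT points for Gm7859 (replicate 6) and Ybx1-ps2 (replicate 1).

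The closest genes of 2 of the 3 copies lie near Cap1, while Nfu1, the closest gene of Gm7859, lies on chromosome 6. Ybx1, Cap1 and Rhbdl2 lie on chromosome 4 within 4.55 Mb, with Cap1 3.58 Mb from Ybx1 and 0.929 Mb from Rhbdl2 (start to start). Among the 25 genes tested on this stretch, Cap1 was a DEG. Rhbdl2 was higher and Pabpc4 lower at an unadjusted p only, and the other 22 did not reach it. With Cap1, that was 2 higher and 1 lower of 25, beside 3.06% and 4.78% of all genes. The stretch was chosen after these values were seen.

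Gm11942, a further processed pseudogene, did not pass (log2 3.38, adjusted p = 0.568). It was at 82.0 to 172 CPM in WT, at 35.7 to 193 CPM in MMP2-/- replicates 2 to 5, and at 2384 and 5126 CPM in replicates 1 and 6.

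MMP2-/- mice that were low or high for these genes in the growth plate were so in their other bones. On a scale common to all 80 libraries, Ybx1-ps2 in mouse 53 was at 0.967 CPM in the growth plate, 1.97 CPM in calvaria and 0 CPM in cortical bone, against 123, 88.6 and 60.2 CPM in mouse 60. Gm7859 had 0 counts in all 3 bones of mouse 128. Gm11942 was high in the 3 bones of mouse 53 (2377, 2219 and 2460.5 CPM) and of mouse 128 (5043, 4258 and 5128 CPM), and no higher than 323 CPM in any bone of mice 58, 59, 60 and 113. High levels were not particular to these 2 mice. The median of Gm11942 was 2591 CPM in MMP9-/- and 4845 CPM in MMPdKO growth plates, against 121 CPM in WT. Bones of the same mouse are not independent samples, and these values are a description.

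**Figure D3:**
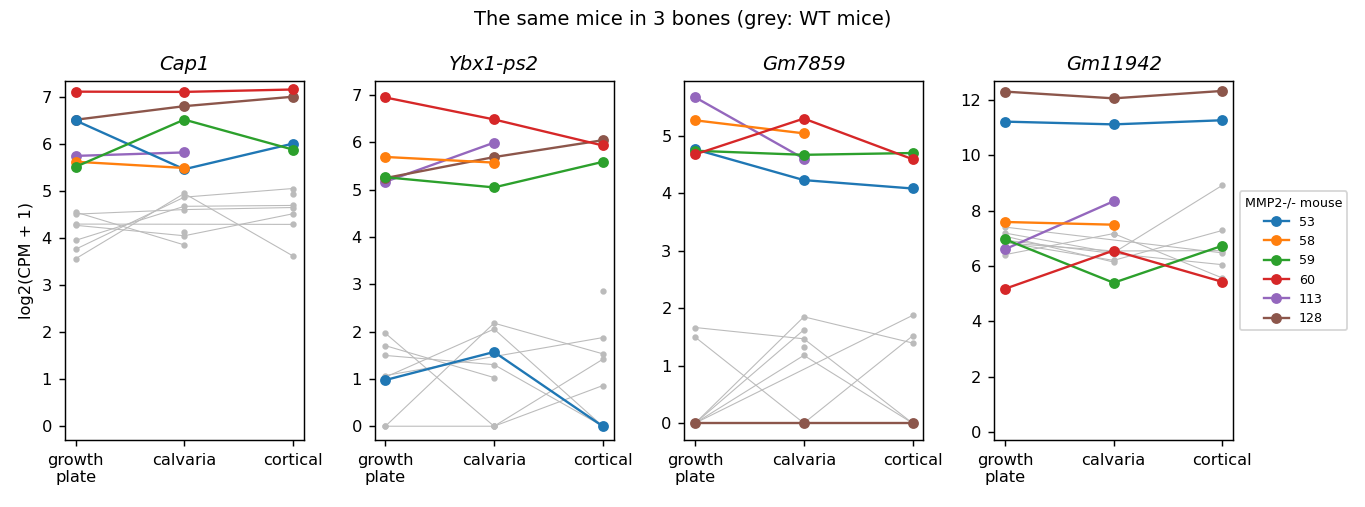
Cap1, Ybx1-ps2, Gm7859 and Gm11942 as log2(CPM + 1) on the scale of all 80 libraries (y axis) in the growth plate, calvaria and cortical bone (x axis) of each MMP2-/- mouse that gave a growth plate library (coloured lines) and of WT mice (grey). Mouse 128 is at 0 for Gm7859 in all 3 bones, and mouse 53 lies among the WT mice for Ybx1-ps2 in all 3.

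The growth plates of the MMPdKO mice, which lack MMP2 as well, did not all carry the Cap1 level of the MMP2-/- mice. Cap1 was at 70.2, 60.9 and 82.9 CPM in mice 66, 87 and 88, and at 17.0 to 25.6 CPM in the other 4, against 10.8 to 22.6 CPM in WT and 44.9 to 138 CPM in MMP2-/- on the scale of all libraries. Ybx1-ps2 was at 79.7, 40.6 and 99.9 CPM in mice 66, 87 and 88 and at 0 to 9.13 CPM in the other 4. Both genes were thus high in the same 3 of 7 mice, while Mmp2 was at 16.6 to 51.0 CPM in all 7. In MMP9-/- growth plates, in which Mmp2 was at 337 to 601 CPM, Gm7859 reached 25.5, 18.9 and 15.03 CPM in mice 101, 102 and 103. The library of mouse 102 (replicate 6) stands apart in Mmp9, but Gm7859 was at 27.6 and 30.7 CPM in the calvaria and cortical bone of that mouse too. Cap1 was at 15.8 to 33.4 CPM and Ybx1-ps2 at 1.02 to 24.0 CPM in MMP9-/- growth plates. Gm7859 was at 0 to 21.7 CPM in MMPdKO growth plates.

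On the MMP9-/- background, too, few genes passed. Of 10075 genes tested between MMPdKO and MMP9-/- growth plates, Mmp2 was the only DEG (0.00993%), which fell by 3.91 on the log2 scale (SE 0.23, adjusted p = 8.97e-10); 428 genes were under an unadjusted p of 0.05, and DESeq2 also called 1. Cap1 did not pass there (log2 0.92, SE 0.32, adjusted p = 0.963). MMP9-/- replicate 6 (mouse 102) stood apart, with 1366 counts of Mmp9 against 130 to 522 in the others, and without it Mmp2 was still the only DEG. A difference in the effect of MMP2 loss between the 2 backgrounds passed in 0 of 10461 genes by edgeR (519 at an unadjusted p under 0.05). By DESeq2 it passed in 0 (525). For Cap1 the difference of the effects was 1.28 on the log2 scale (SE 0.46, adjusted p = 0.921). For Gm7859 it was 6.69 (SE 1.35, adjusted p = 0.130), and no gene had a smaller adjusted p. Between MMPdKO and MMP9-/- growth plates, Gm7859 had a log2 difference of −1.06 (SE 0.85).

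In the other bones, which came largely from the same mice, MMP2-/- against WT gave 19 DEGs of 9711 in calvaria (0.196%) and 5 of 9305 in cortical bone (0.0537%). Cap1 passed in both, higher by 1.91 on the log2 scale (SE 0.27, adjusted p = 0.00132) in calvaria and 1.96 (SE 0.31, adjusted p = 0.0174) in cortical bone. A difference from the effect in the growth plate passed in 0 of 10359 genes in calvaria and 0 of 10203 in cortical bone. At an unadjusted p under 0.05 there were 341 and 263. With the mouse as a random block in limma voom, 0 passed in either bone (386 and 310 at an unadjusted p).

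The cartilage itself showed no difference that passed, with wide spread in both groups. None of 7 cartilage collagen genes and none of 18 tested cartilage matrix genes was under even an unadjusted p of 0.05. Of all 9717 genes, 761 were. The median log2 fold changes of the cartilage lists were 0.30 and 0.32, beside 0.04 over all genes. The direction of both rested on MMP2-/- replicate 3, without which both medians were −0.08, and leaving out each other library in turn gave 0.12 to 0.55 and 0.15 to 0.58. Col2a1, the main collagen of cartilage, was at 2189, 17937 and 23261 CPM (lowest, median, highest) in WT and 952, 14283 and 34805 CPM in MMP2-/-. WT replicates 2, 3 and 7 and MMP2-/- replicate 5 were low, the rest high, and the log2 difference was 0.30 with a 95% interval from −0.97 to 1.56. Acan, the large proteoglycan of cartilage, ran from 505 to 2548 CPM in WT and from 278 to 3480 CPM in MMP2-/- (interval −0.67 to 1.20). Comp, Matn3, Col9a1 and the chondrocyte transcription factor Sox9 had intervals at least as wide as that of Acan. Summed cartilage collagens and summed skeletal muscle genes were both low in WT replicates 2, 3 and 7, at 6197 to 9520 CPM and 2404 to 5295 CPM against 26908 to 33590 CPM and 16933 to 49914 CPM in the other WT libraries.

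Hypertrophic chondrocytes, the enlarged cells at the bony end of the plate, were represented by 12 genes, of which none was a DEG (median log2 0.38). Col10a1, their collagen, was at 626, 1439 and 1971 CPM in WT and 650, 1289 and 3074 CPM in MMP2-/- (log2 0.23, SE 0.34). Ihh, the hedgehog ligand of these cells, was at 30.8, 74.5 and 155 CPM in WT and 10.6, 117 and 179 CPM in MMP2-/- (log2 0.21, SE 0.42). Pth1r, the receptor through which PTHrP delays hypertrophy, was at 517, 671 and 846 CPM in WT and 753, 918 and 1084 CPM in MMP2-/-. Only part of the WT range was shared with MMP2-/-, yet the gene did not pass (log2 0.42, SE 0.14, adjusted p = 0.569). Of 11 genes tested in the PTHrP and hedgehog pathway, Pth1r and Gas1 were higher at an unadjusted p, beside 3.06% of all genes, and none was a DEG.

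Among the matrix metalloproteinases, 11 were tested and Mmp2 alone was a DEG. Mmp14, which activates MMP2, was at 501 to 1251 CPM in WT and 620 to 1332 CPM in MMP2-/- (log2 0.14, interval −0.28 to 0.57). Mmp13, the collagenase of late hypertrophic cells and osteoblasts, was at 12.4 to 38.3 CPM in WT and 11.6 to 102 CPM in MMP2-/-, with the highest value in replicate 4 (log2 0.56, SE 0.43; −0.21 without that replicate). Of 5 inhibitors tested none was a DEG; Timp2, which binds MMP14 and pro-MMP2, was at 443 to 605 CPM in WT and 488 to 791 CPM in MMP2-/- (log2 0.30, SE 0.14, adjusted p = 0.620). Timp1 and Timp3 had log2 differences of 0.23 (SE 0.25) and 0.40 (SE 0.22). None of 7 ADAMTS proteases, 5 lysyl oxidases or 6 fibrillar collagen genes was under an unadjusted p of 0.05. Of all 9717 genes, 761 were.

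**Figure D4:**
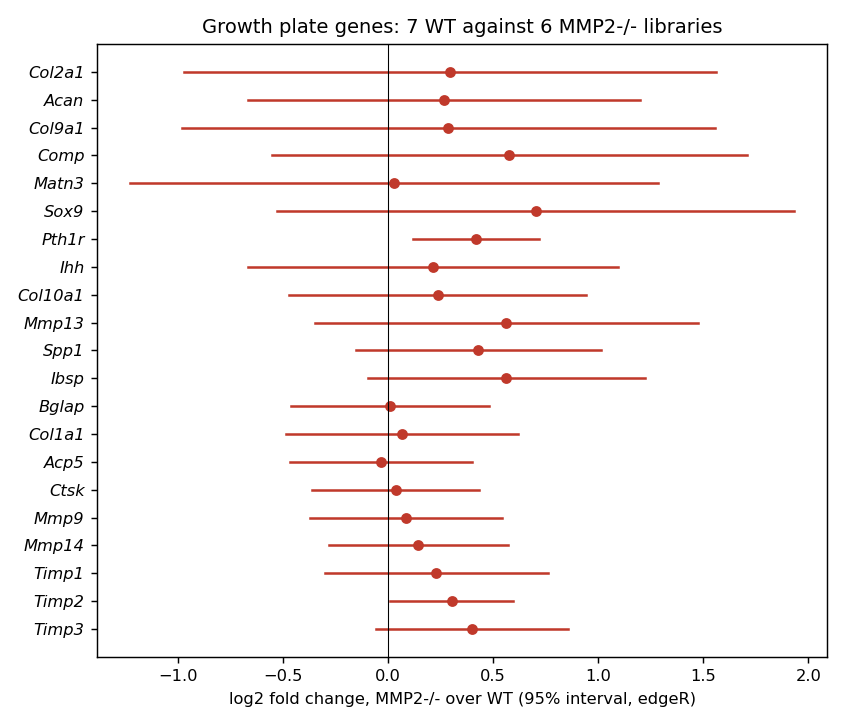
Log2 fold change, MMP2-/- over WT (x axis), with its 95% interval, for 21 genes of cartilage, bone, osteoclasts, gelatinases and inhibitors (y axis). Only the intervals of Pth1r (0.12 to 0.72) and Timp2 (0.01 to 0.60) leave out 0, and neither gene passed after adjustment.

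Bone cells at the plate gave similar results. Of 17 osteoblast genes 0 were DEGs (median log2 0.27), and Pth1r, Dlx5 and Phospho1 were higher at an unadjusted p, beside 3.06% of all genes. Without MMP2-/- replicate 5 the osteoblast median was 0.03, and without WT replicate 1 it was 0.17. Col1a1, the main collagen of bone, had a log2 difference of 0.07 (interval −0.49 to 0.62), and Bglap, osteocalcin, one of 0.01 (interval −0.46 to 0.48). Ibsp and Spp1, sialoproteins of mineralized matrix, were at 0.56 (SE 0.31) and 0.43 (SE 0.28). Of 12 osteoclast genes 0 were DEGs (median log2 0.05). Acp5 and Ctsk, the acid phosphatase and the collagen-degrading cathepsin of osteoclasts, had intervals from −0.47 to 0.40 and from −0.36 to 0.43. Car2, a carbonic anhydrase of osteoclasts and red cells, was the only one of the 12 under an unadjusted p of 0.05. It was lower (log2 −0.93, SE 0.37, adjusted p = 0.569), beside 4.78% of all genes.

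Of the lists examined, red cell genes had the largest share of members below WT at an unadjusted p, again with no DEG. Of 21 erythroid genes tested, 17 were lower at an unadjusted p under 0.05, beside 4.78% of all genes, and 20 had a negative log2 fold change, with a median of −0.94. Gata1, the master transcription factor of red cell precursors, was at 36.2, 65.9 and 101 CPM in WT and 9.57, 32.2 and 64.0 CPM in MMP2-/- (log2 −1.19, SE 0.35, adjusted p = 0.568). Klf1, which switches on globin genes, was at 128, 239 and 287 CPM in WT and 25.5, 91.8 and 200 CPM in MMP2-/- (log2 −1.09, SE 0.33, adjusted p = 0.568). Hbb-bs, a beta globin, was at 29289, 49727 and 78520 CPM in WT and 8498, 26937 and 47584 CPM in MMP2-/-. All 3 overlapped between the groups, and MMP2-/- replicates 4, 5 and 6 were the lowest. In whole tissue, the number of red cell precursors, the RNA per cell and the tissue make-up of the dissected piece cannot be told apart. Without MMP2-/- replicates 5 and 6, 6 of the 21 genes were lower at an unadjusted p and the median was −0.64. In that fit, 520 of 9618 genes were under an unadjusted p of 0.05 in either direction.

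Cell division genes showed the same direction. Of 29 tested, 19 were lower at an unadjusted p, beside 4.78% of all genes. All 29 had a negative log2 fold change, and 0 were DEGs (median −0.62). Aurkb, a mitotic kinase, was at 53.8, 68.1 and 87.6 CPM in WT and 26.0, 43.4 and 65.0 CPM in MMP2-/- (log2 −0.74, SE 0.20, adjusted p = 0.568). Mki67, a marker of dividing cells, was at 46.8, 127 and 226 CPM in WT and 26.6, 67.6 and 185 CPM in MMP2-/- (log2 −0.70, SE 0.38). MMP2-/- replicates 5 and 6 had the lowest summed levels, at 1286 and 1473 CPM against 2120 to 3720 CPM in the other MMP2-/- and 2132 to 4796 CPM in the WT libraries. Without these 2 libraries, 5 of 29 were lower at an unadjusted p, beside 520 of 9618 genes in either direction, and the median was −0.37. The erythroid score, the mean log2 CPM of the erythroid genes, also served as a covariate, although it is itself made from those genes. With it, 0 erythroid and 0 cell division genes were lower at an unadjusted p. In that fit 344 of all 9717 genes were under it in either direction, against 761 without the covariate. The erythroid genes were themselves lower in MMP2-/- (median −0.94), so the score and genotype overlap in this fit. Between MMPdKO and MMP9-/- growth plates, 0 of 20 erythroid and 2 of 29 cell division genes were lower at an unadjusted p, beside 1.80% of all genes (medians −0.25 and −0.27). The MMP9-/- reference of that comparison had a median of 21792 CPM for Hbb-bs and 94.8 CPM for Klf1, against 49487 and 235 CPM in WT on the scale of all libraries. In MMP2-/- against WT calvaria, 16 of 21 erythroid genes (2 of them DEGs) and 14 of 29 cell division genes were lower at an unadjusted p, beside 4.87% of all genes (medians −0.69 and −0.53). In cortical bone 11 of 21 and 8 of 29 were, beside 2.86% (medians −0.75 and −0.49).

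**Figure D5:**
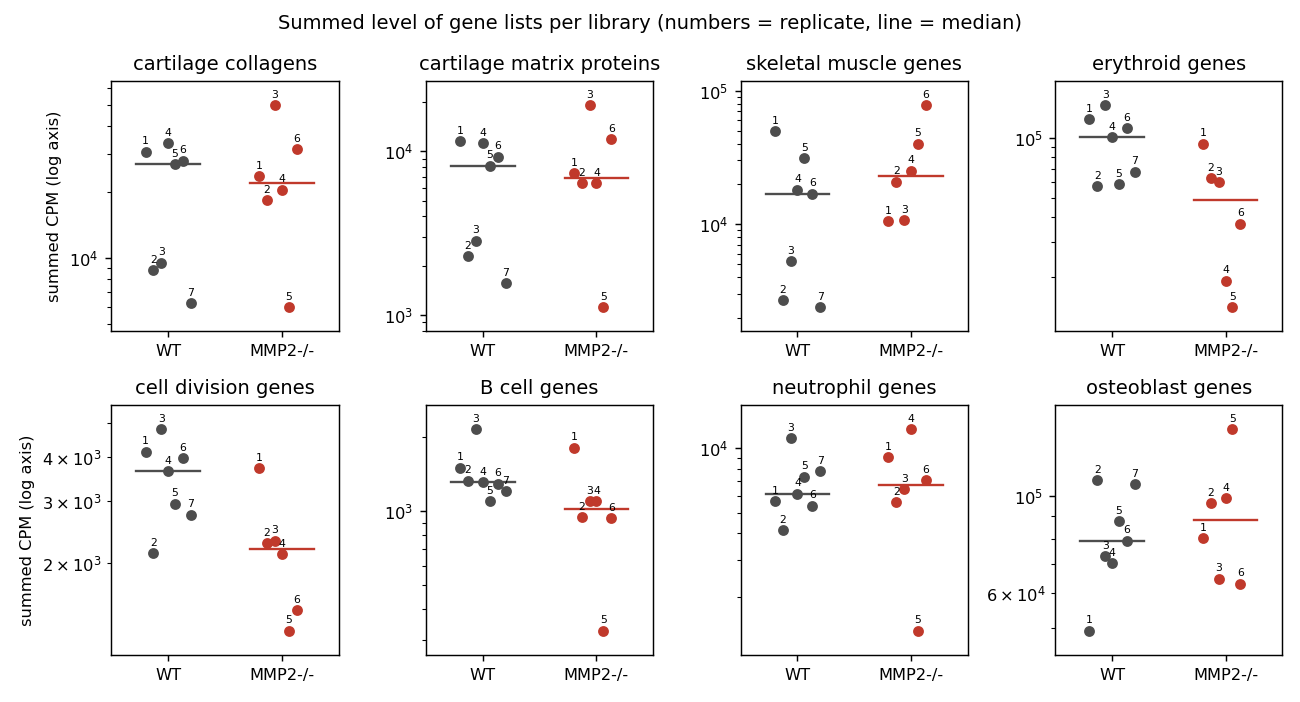
Summed CPM of 8 gene lists (y axis, log scale) in each WT and MMP2-/- growth plate library (x axis), with the replicate number beside each point and a line at the median. MMP2-/- replicate 5 is lowest for cartilage collagens, erythroid, cell division, B cell and neutrophil genes and highest for osteoblast genes, and the groups overlap in each list.

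Other blood and tissue lists held no DEG. All 12 B cell genes had a negative log2 fold change (median −0.51). Vpreb1 and Igll1, parts of the surrogate light chain of B cell precursors, were lower at an unadjusted p, beside 4.78% of all genes. The count of lower B cell genes was 0 without MMP2-/- replicate 5 or WT replicate 1 and 8 without MMP2-/- replicate 1. The counts over all genes changed too. In these fits 597 of 9622, 709 of 9623 and 1134 of 9654 genes were under an unadjusted p of 0.05 in either direction. MMP2-/- replicate 5 had a summed B cell level of 328 CPM and a summed neutrophil level of 1396 CPM, against at least 939 CPM and 4140 CPM in the other libraries. The 18 neutrophil genes had a median of 0.07. All 28 skeletal muscle genes had a positive log2 fold change (median 0.80), and 1 was higher at an unadjusted p, beside 3.06% of all genes. Their median summed level was 16933 CPM in WT and 23009 CPM in MMP2-/-. That median log2 fold change was 0.31 without MMP2-/- replicate 6, −0.03 without replicates 5 and 6, and 1.24 without WT replicate 1. Of 18 endothelial genes Pecam1 and Flt4, of 12 genes of the insulin-like growth factor axis Igfbp3 and Socs2, and of 10 interferon response genes Isg15 and Rsad2 were under an unadjusted p of 0.05, the first 4 higher, beside 3.06% of all genes, and the last 2 lower, beside 4.78%. In all, 43 lists were examined, and Mmp2 was the only DEG in any of them.

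The neighbours of Mmp2 on chromosome 8 can carry sequence of the strain in which the gene was first altered. Of 105 genes tested within 10 Mb to either side, 0 were DEGs, and their median log2 fold change was −0.03. At an unadjusted p under 0.05, 1 was higher, beside 3.06% of all genes. Another 13 were lower, beside 4.78% of all genes, among them Klf1, described above with the red cell genes. Lpcat2, which begins 0.028 Mb away and encodes an enzyme of phospholipid synthesis, was at 4.50, 13.1 and 21.9 CPM in WT and 0, 3.55 and 11.6 CPM in MMP2-/- (log2 −1.21, SE 0.50, adjusted p = 0.593). It was lower without passing in calvaria (log2 −2.10), in cortical bone (−1.32) and in MMPdKO over MMP9-/- growth plates (−1.37). Ciapin1, at 1.99 Mb, was the 1 higher (log2 0.79, SE 0.19, adjusted p = 0.438). It was called in 1 of 26 alternatives, the edgeR fit of all 80 libraries (adjusted p = 0.0348). Mt3, a metallothionein at 1.33 Mb, had a log2 difference of −1.09 (SE 0.29, adjusted p = 0.568), while Mt1 and Mt2 beside it had 0.06 (SE 0.22) and 0.13 (SE 0.22). Mt3 was called in 1 of 26 alternatives, the edgeR fit with the neutrophil score as a covariate (log2 −1.29, adjusted p = 0.0160).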

How the data were processed

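RNA of single tibial growth plates was sequenced by a bulk form of MARS-seq. The authors trimmed reads with cutadapt, aligned them to GRCm38 with STAR 2.7.3a and obtained gene counts from HTSeq; whether molecular barcodes were collapsed is not given in the sources used here. The deposited raw counts (14688 genes) were used, and the normalized counts were not used. After TMM scaling, edgeR 4.0.16 (R 4.3.3) fitted quasi-likelihood models to each gene whose highest count in the 13 libraries was 15 or more, and p-values were adjusted by Benjamini-Hochberg. Positions are from GENCODE M21, which gave a symbol to 14681 genes, and closest transcripts from blastn 2.17.0. DESeq2 1.42.0 and limma 3.58.1 served as alternatives, and the tests were checked on simulated data. Intervals are at 95%.

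The members, gene lists and tests were chosen with earlier results of these data known. Named are Mmp2 and Mmp9, the DEGs without overlap, up to 4 genes per list and up to 8 neighbours of Mmp2 with an adjusted p under 0.05, and 20 growth plate genes whatever their values; all others were named after their values were seen. Each library is a separate mouse. Pathways were described by counts, with no set test. A gene withheld from this text is not reported here.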

Additional observations from a re-analysis of the deposited data

Results flagged for a closer look

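Of 76 sets of growth plate levels examined for a single library far from the rest of its group, 5 were singled out, each at its high end. Chance alone gives about 1 in 20 for normally spread values. CPM was not checked for such a spread, and some of the genes had been picked after their values were seen. In WT, AC131705.1 was at 1.12 CPM in replicate 6 and at 0 in the others, which is 1 count. In MMP2-/-, Mmp13 was at 102 CPM in replicate 4, where the other libraries lay between 11.6 and 33.0 CPM. Timp1 was at 702 CPM in MMP2-/- replicate 5, where the others lay between 292 and 406 CPM, and Mt3 was at 104 CPM in the same library, where the others lay between 19.9 and 49.1 CPM. Timp3 was at 173 CPM in MMP2-/- replicate 6, where the others lay between 95.4 and 119.8 CPM. No gene passed a test of the difference between tissues or backgrounds.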

How the results depend on the processing

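The growth plate comparison gave 5 DEGs, 4 higher and 1 lower. Depth, at most 1126837 counts per library, limits genes near the count minimum. The total was 2 (1 higher) with filterByExpr, where Gm7859, Ybx1-ps2 and AC131705.1 were not tested. It was 3 (2 higher) in a fit of all 27 growth plate libraries, and 5 with RLE factors or without a filter. Leaving out 1 library at a time gave 3 to 9 in all, 2 to 5 higher and 1 to 5 lower, with 9 (5 lower) without MMP2-/- replicate 1. The fit of all 80 libraries gave 7. Lower genes numbered 2 in that fit, 2 with the neutrophil score as a covariate and 2 with the replicate block. The replicate block gave 7 DEGs with all 5 kept, but same-numbered libraries did not deviate together (mean correlation −0.04, from −0.21 to 0.04), so the numbers do not pair the mice. Among alternatives chosen after seeing the data, limma voom with sample weights gave 2 (1 higher), the erythroid score as a covariate 1 (0 higher), and leaving out MMP2-/- libraries 5 and 6 gave 4. Mmp2 was called in 26 of 26 alternatives (log2 −4.65 to −4.09) and Cap1 in 25 of 26 (1.91 to 2.29; adjusted p = 0.0569 with the erythroid score). Gm7859 was called in 23 of 25, Ybx1-ps2 in 20 of 25 and AC131705.1 in 10 of 25; the cause was not tested. Of 33 followed genes that were not called, 16 took the other sign in at least 1 alternative. MMPdKO against MMP9-/- gave 1 DEG with DESeq2 and in each of 14 fits that left out 1 library, the alternatives run for it.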
